A study of Mus musculus with 6 samples.

Results

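The genes described here encode 9 nuclear receptors that pair with the retinoid X receptor (RXR): the liver X receptors LXRβ (Nr1h2) and LXRα (Nr1h3), the bile acid receptor FXR (Nr1h4), the peroxisome proliferator-activated receptors PPARα (Ppara), PPARδ (Ppard) and PPARγ (Pparg), the vitamin D receptor (Vdr) and the thyroid hormone receptors TRα (Thra) and TRβ (Thrb). They were taken by name, 9 of 21887 protein-coding genes, and every peak in the gene body or within 50 kb of its ends was read from 4 peak lists. The cells were OG2X129 mouse embryonic fibroblasts put through chemical reprogramming with DMSO or with CD. The series title names CD3254, a synthetic RXR agonist. CUT&Tag, in which an antibody guides a transposase to its target, was run with an antibody against H3K27ac, an acetylated histone found where promoters and enhancers are active, on 2 samples after CD and 2 samples after DMSO. It was also run with a Flag antibody on 2 samples of cells overexpressing Flag-tagged Rxra, which served as replicates 1 and 2. The labels do not give the promoter that drove Flag-Rxra, whether those cells received CD or DMSO, the day of sampling, or whether replicates were separate cultures.

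RXR binds DNA together with a partner receptor, and the partner sets which genes the pair controls. LXR, FXR and PPAR pairs can usually be activated through RXR itself, whereas VDR and TR pairs respond mainly to the hormone of the partner. The classical DNA element is a direct repeat of the hexamer AGGTCA, and the spacing between the repeated copies favours PPAR pairs (DR1), VDR pairs (DR3) or LXR and TR pairs (DR4). The receptor genes themselves are known to be regulated by nuclear receptors in several tissues.

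Flag-Rxra peaks present in both replicates lay at the promoters of Nr1h3, Ppara, Ppard and Thrb. A peak was called shared when a replicate 1 peak overlapped a replicate 2 peak by at least 1 bp, and its position is that of replicate 1. A promoter was the RefSeq window of 250 bases before to 50 bases after an annotated start, which 8 of the 9 genes had, with 12 windows in all. Thra was not matched. A shared peak overlapped a promoter window in 4 of the 8 genes, against 31.2% of 17492 protein-coding genes. Counted in 1 replicate, a peak lay at the promoter of 4 genes in replicate 1 (38.1% of all genes) and of 5 in replicate 2 (35.7%), the fifth being Pparg. When the peaks of the replicates had to overlap by 50% of both, 2 genes remained, Ppara and Ppard. The 250 bases before the start are shown for these 4 promoters because a Flag-Rxra peak of both replicates reaches into the promoter window of a partner receptor gene there. They are RefSeq sequences of GRCm38, the assembly called mm10 in the submitters' notes, read 5′ to 3′ on the strand of the gene. Capitals mark the bases that lie in a Flag-Rxra peak of both replicates.
Nr1h3, chr2:91195117-91195366, minus strand: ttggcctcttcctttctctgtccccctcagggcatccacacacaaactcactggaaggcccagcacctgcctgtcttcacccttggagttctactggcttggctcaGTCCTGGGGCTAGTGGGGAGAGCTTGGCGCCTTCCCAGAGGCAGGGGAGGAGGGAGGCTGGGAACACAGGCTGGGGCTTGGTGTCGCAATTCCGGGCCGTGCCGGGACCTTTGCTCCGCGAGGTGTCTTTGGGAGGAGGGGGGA
Ppara, chr15:85735526-85735775, plus strand: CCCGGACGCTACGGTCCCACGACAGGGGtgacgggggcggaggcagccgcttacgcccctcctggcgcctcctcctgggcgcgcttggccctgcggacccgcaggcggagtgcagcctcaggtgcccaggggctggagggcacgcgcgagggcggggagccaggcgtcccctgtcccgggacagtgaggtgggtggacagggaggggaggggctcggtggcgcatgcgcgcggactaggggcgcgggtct
Ppard, chr17:28232504-28232753, plus strand: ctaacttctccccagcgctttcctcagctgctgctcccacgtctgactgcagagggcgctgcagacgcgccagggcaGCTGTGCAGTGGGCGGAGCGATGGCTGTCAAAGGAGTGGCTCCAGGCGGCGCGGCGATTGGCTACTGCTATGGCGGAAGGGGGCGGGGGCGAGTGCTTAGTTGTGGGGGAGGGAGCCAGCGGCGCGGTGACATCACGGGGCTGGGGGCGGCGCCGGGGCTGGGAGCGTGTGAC
Thrb, chr14:17660710-17660959, plus strand: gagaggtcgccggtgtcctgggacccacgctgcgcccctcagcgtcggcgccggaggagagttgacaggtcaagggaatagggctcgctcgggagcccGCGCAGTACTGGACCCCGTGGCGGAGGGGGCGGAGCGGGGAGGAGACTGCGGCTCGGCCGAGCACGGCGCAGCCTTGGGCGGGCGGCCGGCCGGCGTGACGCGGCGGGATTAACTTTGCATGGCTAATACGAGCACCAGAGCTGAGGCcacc

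For Nr1h3, which has a pair of close starts, the stretch before the outer one is shown. The annotated genes Nr1h3 and Ppara begin farther out than the starts used here, at chr2:91202829 and chr15:85734910. Their promoter peaks therefore lie inside the annotated genes, and no shared peak lay at the outer end of Nr1h3. At Nr1h3, Ppard and Thrb the capitals run up to or close to the start, and at Ppara only the far edge of the window, 28 bases, lies in both peaks. The GC content of the whole windows was 63.0% at Nr1h3, 74.7% at Ppara, 68.3% at Ppard and 72.7% at Thrb. The hexamer AGGTCA was searched on both strands, as were the related hexamer GGGTCA and another variant, which reads AGTTCA, and matches were allowed to overlap. None of these 3 hexamers occurs in the windows of Nr1h3, Ppara or Ppard. Only the promoter windows were searched, not the whole peaks. The summits of both replicates at Ppara and that of replicate 1 at Nr1h3 lie outside the windows, so the bases there were not searched. Thrb holds AGGTCA on its own strand, starting 184 bases before the start and outside the capitals. Over all 21263 windows of protein-coding genes, 35.3% hold at least 1 of the 3 hexamers, with 31.6% of the windows under a shared peak and 36.9% of the others. No window of the receptor genes holds 2 of these hexamers in direct repeat with 1 to 5 bases between them (DR1 to DR5), a pattern present in 0.357% of all windows.

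**Figure D1:**
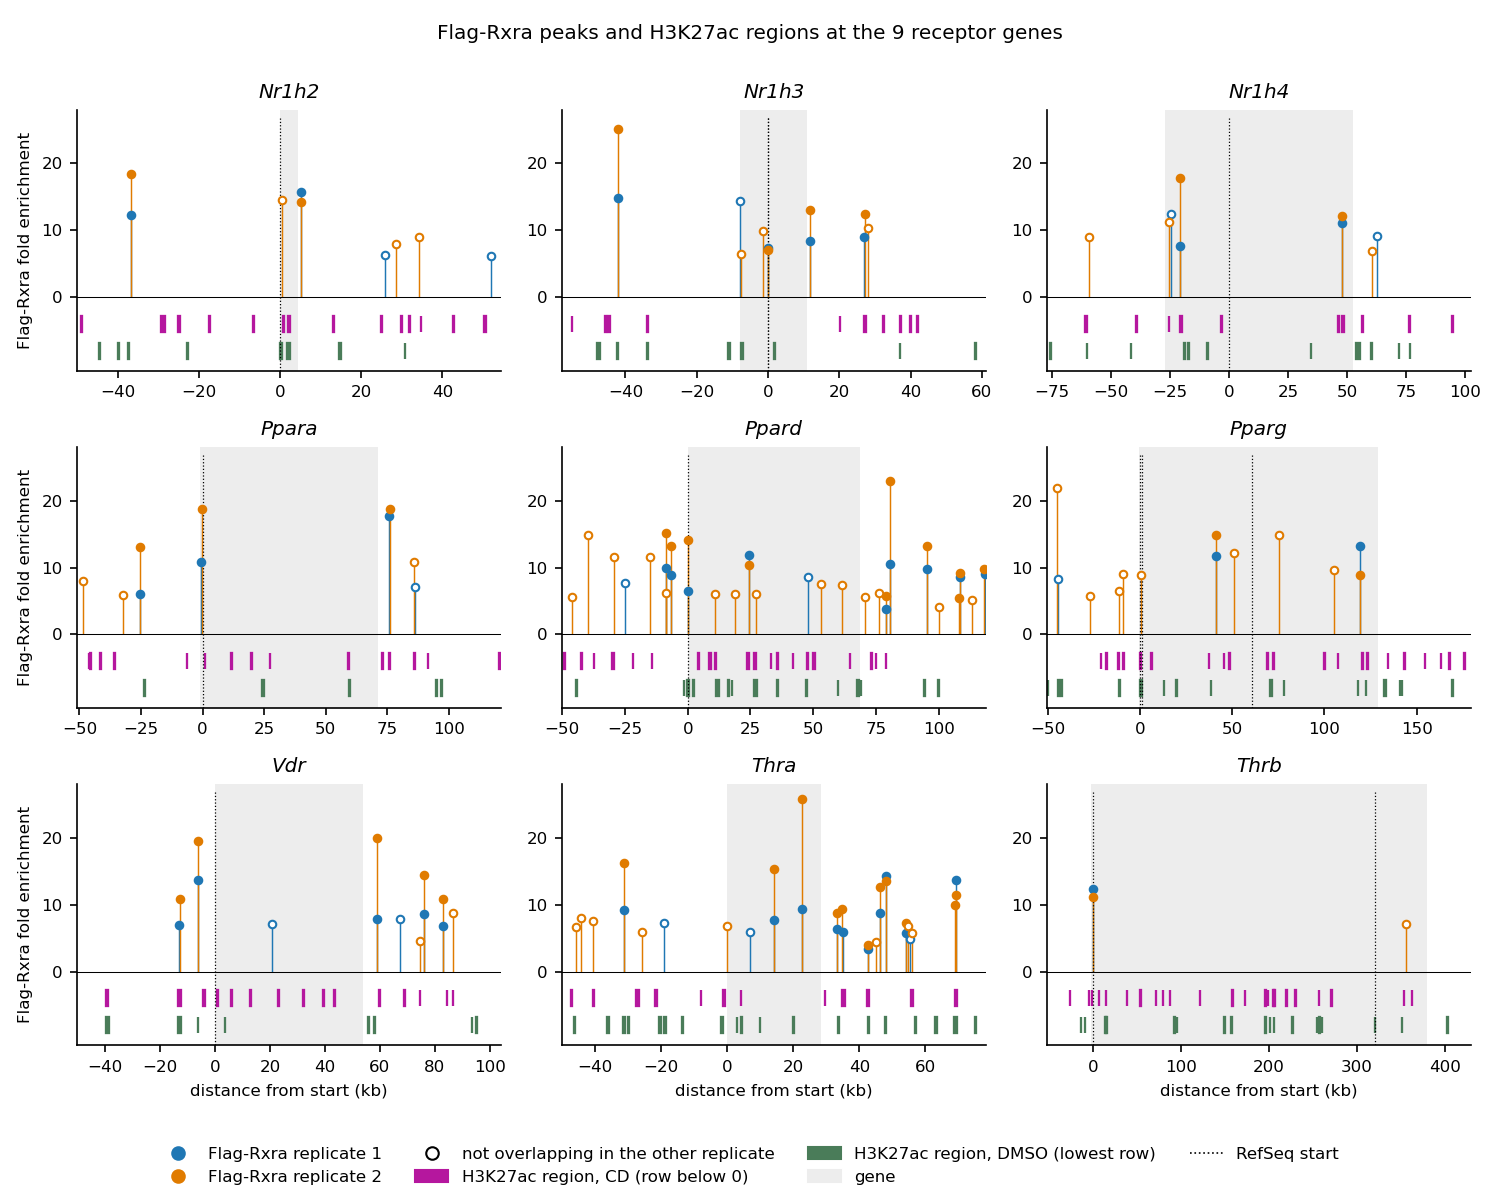
Flag-Rxra peaks and H3K27ac regions at each of the 9 genes, with the distance from the outermost RefSeq start in kb on the x axis (for Thra, from its lower coordinate) and the authors' fold enrichment of Flag-Rxra peaks on the y axis. Filled points are peaks that overlap between the replicates, open points are peaks of 1 replicate only, and the rows below 0 mark H3K27ac regions in CD and in DMSO; Thra holds 10 shared peaks and Thrb 1.

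Over the 9 windows the lists held 52 Flag-Rxra peaks in replicate 1 and 85 in replicate 2, of which 38 were shared. This is 73.1% of the replicate 1 peaks there, against 62.4% of the whole replicate 1 list. Every receptor gene had at least 1 peak in its window in replicate 1 (76.4% of all protein-coding genes), in replicate 2 (82.3%) and shared by both (68.9%). Windows of long genes are wider, so the number of shared peaks per length is given as well. It was highest at Thra, with 7.80 shared peaks per 100 kb, and at Ppard, with 5.33, followed by Nr1h3 with 3.37 and Vdr with 3.25. Nr1h2 had 1.92, Ppara 1.74, Nr1h4 1.11 and Pparg 0.871. Thrb, the longest of the genes at 381 kb, had 0.208. The median of the 9 was 1.92, and the median of all protein-coding genes was 0.960. Thra exceeded 99.0% and Ppard 95% of all genes in density, whereas Pparg exceeded 45.0% and Thrb 31.5%. These densities are of the windows with their flanks. Only 2 of the 10 shared peaks at Thra and 2 of the 9 at Ppard overlapped the gene itself, and the others lay in the flanks. The orders of neighbours such as Nr1h3 and Vdr, or Nr1h2 and Ppara, rest on 1 or 2 peaks and have no replicate error.

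**Figure D2:**
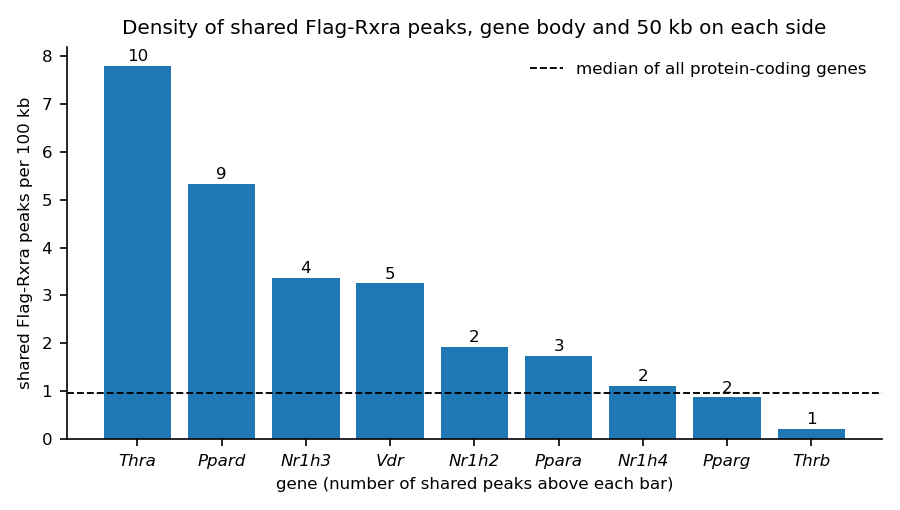
Shared Flag-Rxra peaks per 100 kb (y axis) in the gene body and 50 kb on each side, for the 9 receptor genes (x axis), with the number of shared peaks above each bar and the median of all protein-coding genes as a dashed line. Thra and Ppard stand highest, with 10 and 9 shared peaks, and Pparg and Thrb lie below the line.

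The fold enrichment is the authors' ratio over the background that their peak caller estimated, and the −log10 q is its significance, also as deposited. The lists keep Flag-Rxra peaks down to a −log10 q of 5.00 and H3K27ac regions down to 1.00. Whether a control library entered the authors' peak calling is not given, and none was used here. Shared peaks at the receptor genes had folds from 3.44 to 17.7 in replicate 1 (median 9.02) and from 3.92 to 25.8 in replicate 2 (median 13.1). The medians over all 17623 shared peaks were 10.3 and 14.4. Fold was higher in replicate 2 at 31 of the 38 peaks, as at 83.2% of all shared peaks. The median gap between the summits of the replicates was 53.0 bp.

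**Figure D3:**
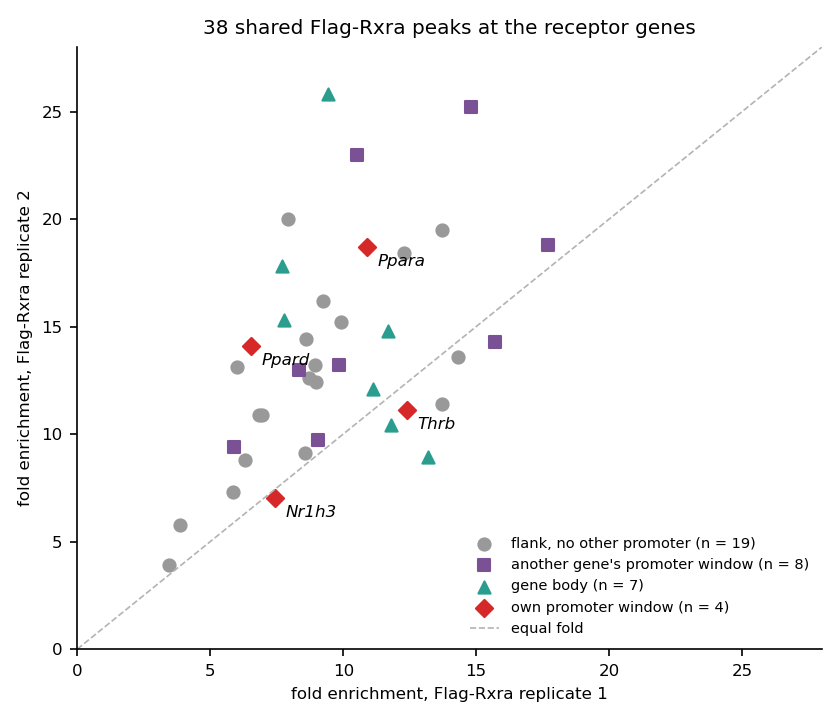
Fold enrichment of the 38 shared peaks in Flag-Rxra replicate 1 (x axis) and replicate 2 (y axis), each point being 1 peak, marked by where it lies; the dashed line is equal fold. Most points lie above the line, and the 4 peaks at promoters of the receptor genes lie within the range of the others.

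Nr1h3 and Nr1h2 encode the oxysterol receptors that raise cholesterol export. At the Nr1h3 promoter the peak of replicate 1 (chr2:91194719-91195260) had a fold of 7.42 and that of replicate 2 (chr2:91195076-91195276) a fold of 7.02. The fold in replicate 2 was the lowest of the 4 promoters, and the summits stood 431 bp apart. No H3K27ac region of either list overlapped this peak. The strongest shared peak in the Nr1h3 window, with folds of 14.8 and 25.2, lay 42.0 kb upstream at chr2:91237000-91237490, near an end of Ddb2, a DNA damage sensor. Another, with folds of 8.33 and 13, lay just beyond the 3′ end of Nr1h3 in the promoter window of its neighbour Madd. At Nr1h2 the shared peak near the gene (chr7:44548591-44549015), with folds of 15.7 and 14.3, lay beyond the 3′ end in the promoter window of Pold1, which encodes the catalytic subunit of DNA polymerase delta. Near the start of Nr1h2 but outside its promoter window, replicate 2 alone had a peak (chr7:44553299-44553632, fold 14.6, summit 527 bp inside the gene). It overlapped a CD region (fold 2.81) on one side and a DMSO region (3.08) on the other. A further shared peak, with folds of 12.3 and 18.4, lay 36.8 kb upstream.

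Nr1h4, whose product senses bile acids in liver and gut, had no Flag-Rxra peak of either replicate at its promoter window or within 1 kb of its ends. Its window held 2 shared peaks, both inside the annotated gene. The peak 20.7 kb before the start (chr10:89527222-89527439) had folds of 7.70 and 17.8, and that 47.8 kb past the start (chr10:89458738-89459118) had 11.1 and 12.1. The first overlapped a CD region of H3K27ac (fold 3.11, −log10 q 1.33) and the second none.

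The PPAR genes differed in where shared peaks lay. Ppara, the receptor that drives fatty acid oxidation, had its peak (chr15:85735136-85735553) with a summit 316 bp before the start and folds of 10.9 and 18.7. A peak 25.6 kb upstream had folds of 6 and 13.1, and one 75.9 kb past the start had 17.7 and 18.8. The latter lies beyond the gene's end in the promoter window of Cdpf1. Ppard, the broadly expressed PPAR, had folds of 6.52 and 14.1 at its promoter (chr17:28232581-28232901). It had 2 further shared peaks 6.53 kb and 8.41 kb upstream, with folds of 8.93 and 13.2 and of 9.92 and 15.2. Inside the gene, 24.4 kb past the start, a shared peak had folds of 11.8 and 10.4. The other 5 of its 9 shared peaks lay beyond its 3′ end, among Fance, Rpl10a and Tead3.

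Pparg, the regulator of fat cell differentiation, has 3 RefSeq starts, and no shared peak lay at any of them. Replicate 2 alone had a peak between the first and the second start (chr6:115361847-115362112, fold 8.86), which reached 14 bases into the second window. The shared peaks were both inside the gene. One lay 19.5 kb before the third start (chr6:115402355-115402696) with folds of 11.7 and 14.8. The other lay 58.4 kb past that start (chr6:115480252-115480630) with folds of 13.2 and 8.95. Neither overlapped an H3K27ac region.

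Vdr had no shared peak at its promoter or inside the gene. All 5 of its shared peaks lay in the flanks, 2 upstream and 3 downstream. The nearest, 6.18 kb upstream (chr15:97914387-97914693), had folds of 13.7 and 19.5 and overlapped a DMSO region (fold 3.41, −log10 q 1.63). The next, 13 kb upstream (chr15:97921149-97921566), had folds of 6.93 and 10.9, with summits 469 bp apart. It overlapped H3K27ac regions of both lists. The DMSO region there (chr15:97920522-97921556) had a fold of 7.30 and a −log10 q of 10.7, the highest of any H3K27ac region at the receptor genes and above 99.59% of the DMSO list. The CD region (chr15:97920694-97921533) had a fold of 4.37 and a −log10 q of 3.15. A second pair of H3K27ac regions stood 39.2 kb upstream, with folds of 4.89 in CD (−log10 q 5.13) and 4.11 in DMSO (−log10 q 3.61), and held no Flag-Rxra peak. A −log10 q of 5 or more was reached at the 9 genes by the distal CD region and the nearer DMSO region of Vdr only, and by 0.652% of the whole CD list and 0.955% of the DMSO list.

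**Figure D4:**
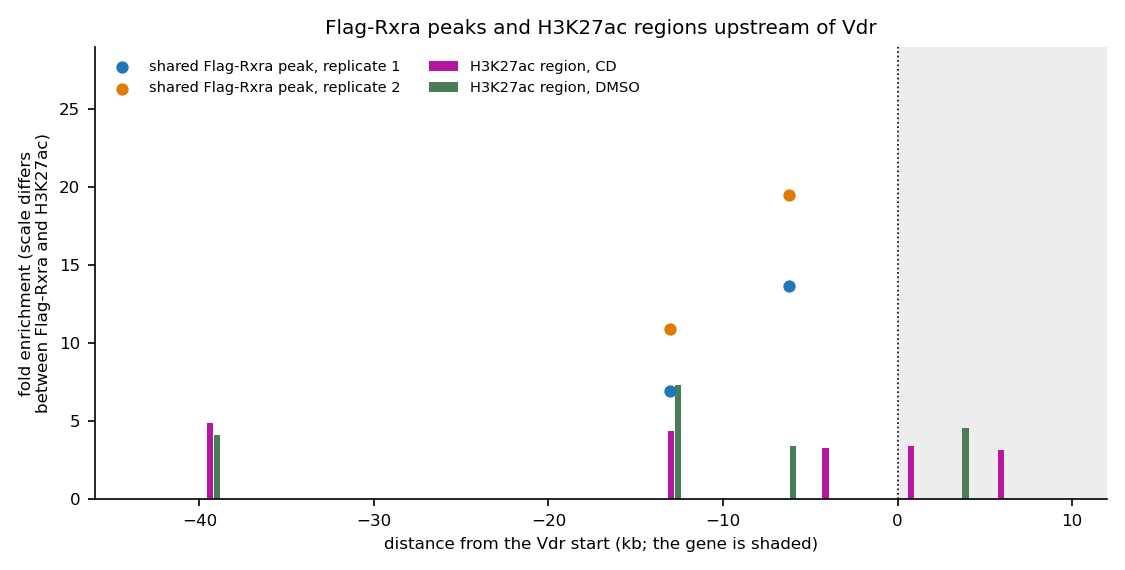
H3K27ac regions (bars) and shared Flag-Rxra peaks (points) upstream of Vdr, by distance from its start in kb (x axis) and the authors' fold enrichment (y axis), which is not on a common scale between Flag-Rxra and H3K27ac. About 13 kb upstream, H3K27ac regions of both lists and a peak of both Flag-Rxra replicates coincide.

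Thra lies in a crowded stretch of chromosome 11, overlapping the far end of Nr1d1, a circadian repressor. Of its 10 shared peaks, 2 were inside the gene. The peak 22.6 kb past its lower end (chr11:98763258-98763625) had folds of 9.43 and 25.8, and that 14.1 kb past it (chr11:98754635-98755082) had 7.79 and 15.3. At the lower end itself, replicate 2 alone had a peak (chr11:98740608-98740788, fold 6.82). A shared peak 31.4 kb outside that end had folds of 9.25 and 16.2 and overlapped a DMSO region (fold 2.51). The other 7 lay beyond the upper end, where Nr1d1, Msl1 and Casc3 begin or end. The peak at the Nr1d1 promoter window (chr11:98775252-98776066) had folds of 5.88 and 9.42, and a peak 48.2 kb past the lower end of Thra had 14.3 and 13.6.

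Thrb, which encodes the other thyroid hormone receptor, had a single shared peak. This only shared peak in a window of 481 kb lay at the first RefSeq start (chr14:17660564-17660955), with folds of 12.4 and 11.1 and summits 187 bp apart. The annotated gene begins farther out than this start, so a 1 kb window around the gene's ends misses the peak. An end of another annotated gene, LOC115488350, lies within 1 kb of it. The second start, deep in the gene, had no Flag-Rxra peak. Replicate 2 alone had a further peak inside the gene (fold 7.07).

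Counting gene ends in place of starts, 4 of 9 genes had a shared peak within 1 kb (Nr1h2, Nr1h3, Ppara and Ppard), against 32.6% of all protein-coding genes. At Nr1h2 and Nr1h3 the end in question is the 3′ end, next to Pold1 and Madd. Replicate 1 alone gave the same 4 genes, against 41.7% of all genes, and replicate 2 alone gave these and Pparg and Thra, against 42.1%.

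Most H3K27ac regions at the receptor genes were called in 1 of the 2 lists only. The 9 windows held 140 CD regions and 108 DMSO regions, and each window had at least 1 of each, against 89.5% of all genes in CD and 83.6% in DMSO. Of the CD regions 15 (10.7%) overlapped a DMSO region, against 13.9% of the whole CD list, and 15 of the DMSO regions (13.9%) overlapped a CD region, against 19.2%. Most regions were weak calls in lists kept down to a −log10 q of 1.00. A value of 2 or more was reached by 20 of the 140 CD regions (14.3%) and 15 of the 108 DMSO regions (13.9%). Whether weak calls account for the low overlap was not tested. Both replicates of a condition share 1 list, so no difference between CD and DMSO has a replicate error or a test. In these bulk samples, fewer cells with the mark and less of the mark per cell cannot be told apart.

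At promoters, Pparg was the only receptor gene with an H3K27ac region in both lists. The CD region (chr6:115361117-115361987) had a fold of 3.44 and the DMSO region (chr6:115361079-115362077) a fold of 3.35. Both spanned the first start, and the Flag-Rxra peak of replicate 2 between the first starts overlapped them. A DMSO region alone overlapped a promoter window of Nr1h2 (fold 3.08), Ppard (2.77) and Thrb (3.07, at the second start). No receptor gene had a promoter region in CD alone. This gave 1 of 8 genes in CD, against 16.6% of all genes, and 4 of 8 in DMSO, against 19.4%. At the 4 promoters with a shared Flag-Rxra peak, that peak met an H3K27ac region at Ppard only, in DMSO. All of these promoter regions had a −log10 q under 2. Within 1 kb of a gene end, 5 of 9 genes had a CD region, against 38.3% of all genes, and 4 of 9 had a DMSO region, against 35.8%. Within 2.5 kb of the ends, Ppara, Thra and Thrb had more covered bases in CD, 3 genes against 35.8% of all genes, and the other 6 had more in DMSO, against 32.1%.

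Covered bases over the whole windows differed in direction among the genes. At Ppara 15 CD regions covered 5321 bases and 5 DMSO regions covered 2078, the widest difference of the 9. Vdr had 5960 and 4056, and Nr1h2 4634 and 2764. Thra had 5462 in CD and 7418 in DMSO, and Thrb 7108 and 8007. Nr1h3 (2931 and 3103), Nr1h4 (4319 and 3903), Ppard (7093 and 7558) and Pparg (7495 and 7293) lay closer together, with CD minus DMSO between -465 bases at Ppard and 416 at Nr1h4. More bases were covered in CD at 5 of 9 genes, against 59.5% of all protein-coding genes, and more in DMSO at 4, against 31.3%. The median difference of CD minus DMSO was 202 bases for the receptors and 282 for all genes.

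These differences depended on which regions were kept. The CD list covers more of the genome, and with covered lengths matched between the lists Nr1h2, Ppara and Vdr were the 3 genes covered more in CD, and the other 6 were covered more in DMSO. Over all genes 46.3% then had more in CD and 42.6% in DMSO. Regions whose −log10 q was at least 2 made up 13.8% of the CD list and 18.3% of the DMSO list. With these, CD covered more at 6 genes, DMSO covered more at Nr1h4 and Pparg, and Nr1h3 had none in either. Over all genes 34.8% then had more in CD, 39.5% more in DMSO and 25.7% equal numbers. Nr1h2, Ppara and Vdr had more covered bases in CD over the whole window in all 3 settings. Near the gene ends, within 2.5 kb, Nr1h2 (773 bases in CD and 1100 in DMSO) and Vdr (187 and 554) had more in DMSO, and Ppara (900 and 0) had more in CD. With the stricter regions the whole windows had 657 bases in CD and 0 in DMSO at Ppara, and 2840 and 2316 at Vdr.

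**Figure D5:**
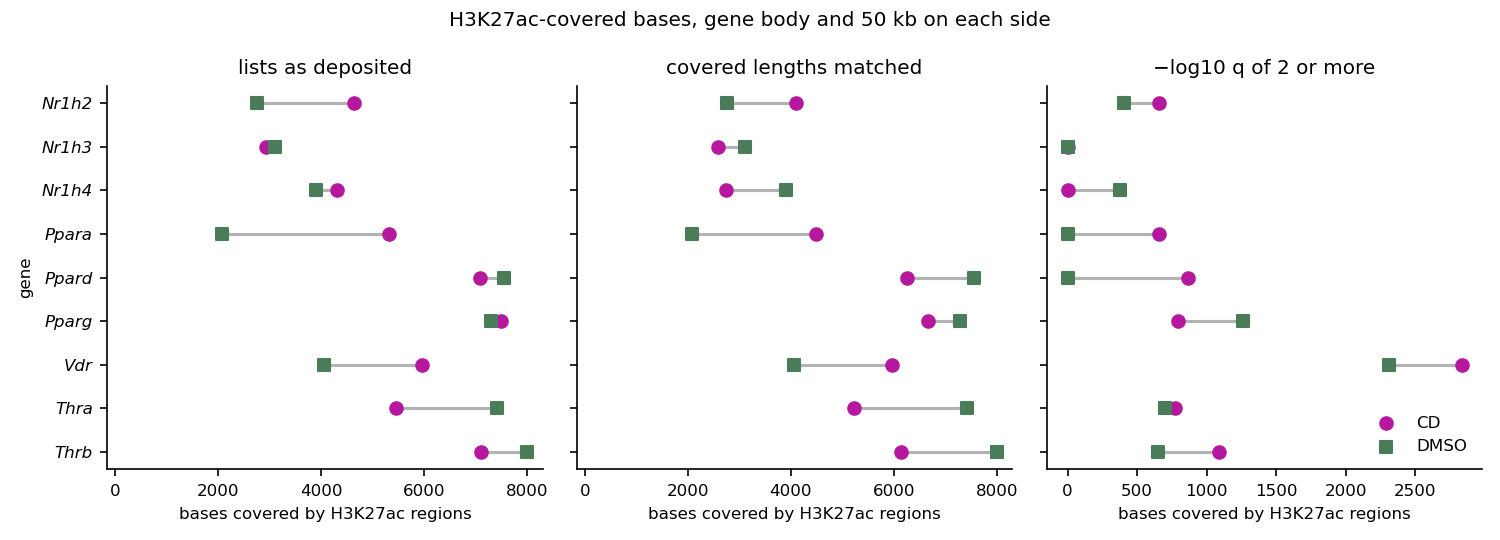
Bases covered by H3K27ac regions (x axis) in CD (circles) and DMSO (squares) for each receptor gene (y axis), from the lists as deposited, with covered lengths matched, and with regions whose −log10 q was at least 2; each point is 1 list with no replicate error. Nr1h2, Ppara and Vdr keep more bases in CD in all 3 panels, and the other genes change side or are equal in at least 1 panel.

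Of the 38 shared Flag-Rxra peaks at the receptor genes, 9 (23.7%, exact 95% interval 11.4 to 40.2) overlapped a CD region, against 26.9% of all shared peaks. A DMSO region was overlapped by 9 as well, against 34.4%. Counts stayed equal with covered lengths matched (9 each) and with H3K27ac regions of −log10 q of 2 or more (1 each). All replicate 1 peaks also gave equal counts, 11 of 52 for each list. Other definitions of the peaks gave unequal counts. Of the 24 shared peaks whose −log10 q reached 20 in both replicates, 4 overlapped a CD region and 7 a DMSO region. With an overlap of 50% of both replicate peaks these were 4 (13.8%) and 6 of 29, and among all replicate 2 peaks 22 and 17 of 85. Both lists were met by 3 peaks, namely 13 kb upstream of Vdr and, beyond the upper end of Thra, 42.7 kb and 69.1 kb past its lower end. No H3K27ac region of either list overlapped 23 of the 38 (60.5%, 43.4 to 76.0), against 54.1% of all shared peaks. The intervals cover counting error only, since neighbouring peaks are not independent.

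Genes that act with or under these receptors were counted in the same way, by a shared peak within 1 kb of a gene end, beside the 32.6% of all protein-coding genes. Of 11 RXR, RAR and other partner receptor genes, 2 had one: Nr4a2 (folds of 8.16 and 9), an orphan receptor that pairs with RXR, and Rxrb (5.57 and 6.82), an RXR itself. Counted at promoter windows in place of gene ends, 5 of these 11 had a shared peak (Rara, Rarb, Rarg, Nr4a1 and Rxrb), beside 31.2% of all genes. Rxra, the gene of the tagged protein, had no shared peak in either count. Of 9 LXR target genes 5 had one, with the best ranks at Lpcat3 (18.4 and 25.1), which remodels phospholipids, and Abca1 (11.6 and 17.9), a cholesterol exporter. Of 11 PPAR target genes 6 had one, among them Acadm (17.4 and 28.8), an enzyme of fatty acid oxidation. Thyroid hormone receptor targets had 2 of 7, Klf9 (8.72 and 12), a transcription factor, and Dio3 (8.69 and 9.37), which inactivates thyroid hormone. VDR targets had 1 of 7, Cyp24a1 (8.67 and 14.9), which breaks down vitamin D. FXR targets had 0 of 6, where a rough limit of 3 counts is a share of 50%. Counted at promoter windows, among target genes with such a window, LXR targets had 3 of 7 and PPAR targets 4 of 6. Thyroid hormone receptor targets had 2 of 6, VDR targets 0 of 6 and FXR targets 0 of 4. The lists are short and were given no test.

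The cell type on the labels was checked on H3K27ac and Flag-Rxra at marker genes. Within 1 kb of a gene end, 6 of 11 fibroblast markers had an H3K27ac region in CD (38.3% of all genes), 5 in DMSO (35.8%) and 6 a shared Flag-Rxra peak (32.6%). Of 4 markers each, hepatocyte genes had an H3K27ac region in neither list, adipocyte genes had 1 in CD and 2 in DMSO, macrophage and intestinal genes 2 in CD and 0 in DMSO, and pluripotency genes 1 in CD and 0 in DMSO. A shared Flag-Rxra peak lay at 1 of 4 macrophage and 1 of 4 intestinal markers. Adipocyte, hepatocyte and pluripotency markers had 0 of 4 each, where a rough limit of 3 counts is a share of 75%. The part of other cell types in the results at the receptor genes was not tested.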

How the data were processed

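CUT&Tag peak lists for mm10 were used as deposited: 1 broad-region list for both CD samples, 1 for both DMSO samples, and 1 narrow-peak list for each Flag-Rxra replicate. MACS2 2.1.2, Bowtie2 2.2.5, fastp 0.20.1 and deepTools 3.4.3 were used, per the submitters' processing notes. How replicates were combined and whether a control entered peak calling are not given in the sources used here. The fold ratio and the −log10 q of each peak are the authors' deposited values. Folds of the Flag-Rxra replicates were set side by side, with no correction for depth between their lists, and 1 alternative weighted H3K27ac bases by fold. The lists held 104437 CD and 75482 DMSO regions and 28243 and 45999 Flag-Rxra peaks on chromosomes 1 to 19, X and Y, and 332 entries on other sequences were left out. Depth is unknown, because no read numbers come with the peaks.

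Python 3.11.15, numpy 2.4.6, pandas 2.3.3, scipy 1.17.1 and matplotlib 3.10.9 were used. Gene positions and promoter sequences came from RefSeq tables of GRCm38.p6, which give no exons. Overlap meant 1 bp or more. Interval counts were tested on simulated lists against a count base by base. Exact intervals are Clopper-Pearson. The limit beside a count of 0 is 3 counts, an approximation that is wider than the exact interval for lists this short. No test between conditions was made. The members and lists were chosen with earlier results of these data known, and promoter windows in place of gene ends were added after the reference tables were seen. Named genes were the 9 members, Rxra, neighbours with an end within 1 kb of a shared peak, and the up to 2 genes of each list with the best ranks of fold. Acp2, Rara, Rarb, Rarg and Nr4a1 fall outside this rule and were chosen after their values were seen. The values of 1 gene that this rule names are not reported here. Alternatives covered the thresholds, overlap, windows, replicates and covered lengths.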

Additional observations from a re-analysis of the deposited data

How the results depend on the processing

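The count of receptor genes with a shared Flag-Rxra peak at a promoter was 3 with peaks of −log10 q of 20 or more (Ppara, Ppard and Thrb, against 23.9% of all genes) and 2 with an overlap of 50% of both peaks (Ppara and Ppard, against 19% of all genes). The Nr1h3 promoter peak was lost in both. Leaving out 1 replicate gave 4 to 5 genes at promoters and 4 to 6 at gene ends, with Pparg added in replicate 2 alone at promoters, and Pparg and Thra at gene ends. The 38 shared peaks became 24 with −log10 q of 20 or more, 20 with flanks of 10 kb, and 52 to 85 with 1 replicate. With H3K27ac regions of −log10 q of 2 or more, 2.63% of shared peaks overlapped a region in each list, and 1 gene, Thra, had a CD region and 0 a DMSO region within 1 kb of an end (6.65% and 8.84% of all genes); with 2.5 kb, 7 genes had a CD region and 7 a DMSO region (56.2% and 49.4% of all genes). Matched covered lengths left 3 genes with more bases in CD. The CD minus DMSO difference changed sign with regions of 2 or more at Nr1h4 (−380 bases), Ppard (865), Pparg (−468), Thra (74) and Thrb (444), with matched lengths at Nr1h4 (−1161) and Pparg (−625), with flanks of 10 kb at Thra (413) and with bases weighted by fold at Ppard (1695). The cause was not tested. Leaving out H3K27ac regions of −log10 q of 100 or more says nothing here, since none at these genes exceeds 10.7. No paired analysis was possible because each H3K27ac condition has 1 list and no result comes from a test. Unknown depth limits every statement that a peak is missing.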

Other observations

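Of the 38 shared Flag-Rxra peaks in the windows of the receptor genes, 8 lay at promoter windows of other genes and 4 at those of the receptors. Fance, a DNA repair gene next to Ppard, had 10.5 and 23.0 (chr17:28313294-28313773), and Rpl10a, a ribosomal protein gene, had 9.84 and 13.2. Tead3, a transcription factor of the Hippo pathway, had 9.05 and 9.71. The peak at Rpl10a was 1077 bp wide in replicate 1, the widest of the 38.

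Some peaks of the replicates lay near each other without overlapping and therefore were not counted as shared. Whether such a pair marks 1 site or separate sites was not tested. The following were picked after their values were seen. At the upper end of Nr1h3, next to Acp2, a lysosomal phosphatase gene, replicate 1 had a peak at chr2:91202842-91203101 (fold 14.4) and replicate 2 at chr2:91202454-91202684 (fold 6.43). Upstream of Pparg, replicate 1 had a peak at chr6:115316878-115317075 (fold 8.30) and replicate 2 at chr6:115315911-115316083 (fold 21.9), the highest fold of any Flag-Rxra peak in the Pparg window.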
